A study of Mus musculus with 9 samples.

Results

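The genes described here code for the enzymes that add methyl and acetyl groups to histones and take them off again. They were chosen by gene name: the lysine demethylases named Kdm, the lysine methyltransferases named Kmt or Setd together with Ezh1, Ezh2, Suv39h1, Suv39h2, Ehmt1, Ehmt2 and Dot1l, the histone deacetylases named Hdac, the sirtuins, and the acetyltransferases named Kat together with Ep300 and Crebbp. The name rule found 72 of 54986 genes. Of these, 68 reached at least 1 TPM (a level scaled to a common sum per library and corrected for gene length and sequencing depth) in at least 3 of the 9 libraries, as did 15837 genes in all. They are 67 protein-coding genes and Kdm6bos, an RNA transcribed from the strand opposite Kdm6b.

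Methyl groups on histone lysines mark chromatin as active or silent depending on the position: methylation of H3K4 sits at promoters and enhancers in use, methylation of H3K27 marks genes silenced by Polycomb, and methylation of H3K9 marks heterochromatin. Acetyl groups loosen chromatin and mark active promoters and enhancers, and deacetylases working inside corepressor complexes remove them. In reprogramming of fibroblasts to pluripotency by the factors Oct4, Sox2, Klf4 and Myc (OSKM), the marks of the fibroblast have to be rewritten, and methylation of H3K9 in particular is known to stand in the way.

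The libraries were made from total RNA of primary mouse embryonic fibroblasts (MEFs) of the C57BL/6 strain, with 3 libraries in each of 3 groups: overexpression of Zscan4f3A, overexpression of Zscan4f, and control. Zscan4f is a zinc finger gene of the early mouse embryo, and the title of the series links its SCAN domain, which binds other proteins, to the DNA demethylase Tet2. All 9 libraries carry the label D4-OSKM-2ndMEFs, so every group, the control included, has OSKM in its name and no library is without it. In the control titles no overexpressed gene and no empty vector is named, and neither the sequence change behind 3A nor the meaning of D4 is given in the sources. Zscan4f itself had 827, 836 and 654 TPM with Zscan4f3A, 570.05, 565 and 558 TPM with Zscan4f, and 0.33, 0 and 0.96 TPM in control, in keeping with the labels. Fibroblast markers summed to 13082 to 13472 TPM with Zscan4f3A, 13686 to 13835 TPM with Zscan4f and 13145 to 13403 TPM in control. Without read counts in the files, how many fragments stand behind a value is unknown; aligned sequence was estimated at 6.93, 8.38 and 3.31 gigabases with Zscan4f3A, 8.39, 7.48 and 8.10 with Zscan4f, and 7.79, 8.26 and 6.60 in control. Nothing says that the 3 libraries of a group came from separate cultures, so the p-values measure only the spread between these libraries, which may be technical.

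Most of the histone enzymes were expressed at moderate levels in all 9 libraries. The median over the 68 genes of the mean level was 31.3 TPM, against 17.4 TPM over all genes tested, and 62 of the 68 averaged at least 10 TPM. Ehmt2, which adds methyl groups to H3K9 together with its partner Ehmt1, was the highest, followed by Hdac1, the deacetylase core of several corepressor complexes, and by Setd8 (now Kmt5a), which places the first methyl group on H4K20. Their means over 9 libraries were 137 TPM for Ehmt2, 125 TPM for Hdac1 and 103 TPM for Setd8. The lowest were Hdac9, a class IIa deacetylase, at 1.07 TPM, Kdm6bos at 1.33 TPM and Suv39h2, a heterochromatin H3K9 methyltransferase, at 1.96 TPM. Hdac9 lay just inside the filter, with 0.649 to 1.51 TPM over the libraries. Just outside it lay Kdm4d, a demethylase of the Kdm4 family, with 0.114 to 0.518 TPM. The other 3 genes below the filter were the pseudogenes Kat2b-ps, Kat6b-ps1 and Kat6b-ps2, which were listed at 0 in all libraries except Zscan4f replicate 2, at 0.0761 TPM for Kat2b-ps, and control replicate 2, at 0.0133 TPM for Kat6b-ps2.

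**Figure D1:**
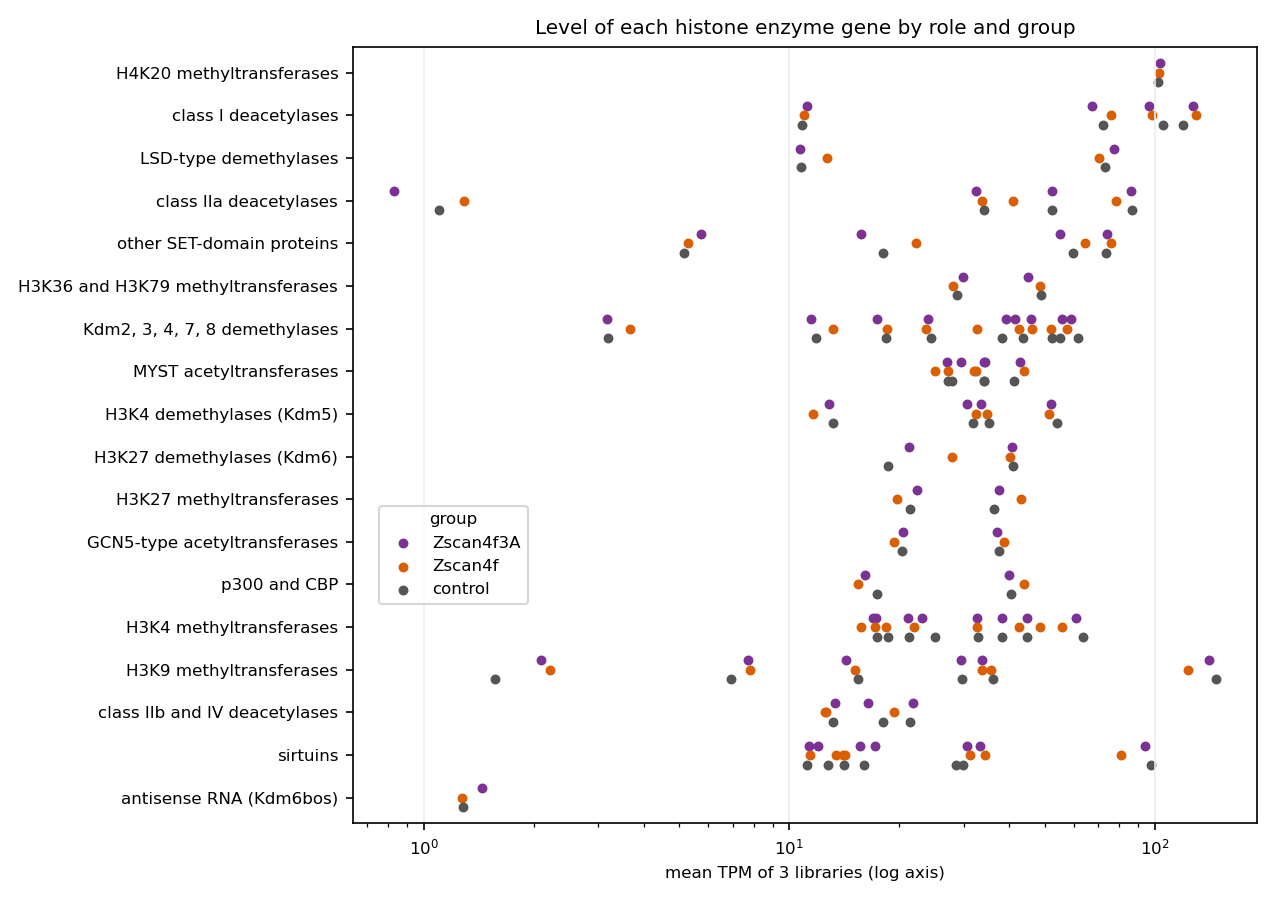
Mean TPM of each of the 68 histone enzyme genes (log axis) in the Zscan4f3A, Zscan4f and control libraries (3 each), with genes set in rows by role. In most rows the 3 colours lie close together, and levels differ far more between genes, 1.07 to 137 TPM, than between groups.

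Some paralogs with the same role were expressed at clearly unequal levels, and others lay closer together. Among the H3K9 methyltransferases Ehmt2 stood above Ehmt1 by a ratio of 4.01, 4.02 and 4.50 with Zscan4f3A, 3.32, 3.51 and 3.52 with Zscan4f, and 4.16, 4.10 and 3.97 in control, and the Zscan4f libraries were the lowest with no overlap. Ezh1, one of the 2 catalytic subunits of Polycomb repressive complex 2, exceeded its paralog Ezh2 in every library, by a ratio of 1.53 to 2.03 with Zscan4f3A, 1.99 to 2.41 with Zscan4f and 1.47 to 2.16 in control. These ranges overlapped. The X-linked Kdm5c exceeded its Y-linked copy Kdm5d by a ratio of 3.58 to 4.40 with Zscan4f3A, 4.22 to 4.76 with Zscan4f and 3.63 to 4.57 in control, which also overlapped. Other pairs were nearer to equal. Over the 9 libraries the ratio of Kmt2c to Kmt2d was 0.771 to 0.900, and that of Hdac1 to Hdac2 was 1.07 to 1.53. These ratios were chosen after the values had been seen.

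Between the groups few of the enzymes changed. Each comparison was tested on log2(TPM + 1) with limma over all 15837 genes, and genes with a Benjamini-Hochberg adjusted p under 0.05 were called. In bulk RNA fewer cells of a type and less RNA per cell cannot be told apart. With Zscan4f against control, 7 of 68 enzymes were called (10.3%), 3 higher and 4 lower, where 18.5% of all genes were called, 8.74% higher and 9.71% lower. With Zscan4f3A against Zscan4f, 2 of 68 were called, both higher, where 15.1% of all genes were called, 7.64% higher and 7.48% lower. With Zscan4f3A against control, 0 of 68 were called by limma, where 0.0316% of all genes were called, 0.0189% higher and 0.0126% lower. An unadjusted p under 0.05 in limma was found for 2 of the 68 (2.94%) and for 8.77% of all genes. The share of enzymes called thus lay below the share of all genes in the comparisons of Zscan4f with either other group, which share the Zscan4f libraries, just as both comparisons against control share the control libraries. Below, enzymes of a class said to be called in no comparison stand beside these shares of all genes, 18.5%, 15.1% and 0.0316%. In a class of few genes, 0 calls says little.

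The 7 called genes were Hdac7, Ehmt2, Hdac11 and Kmt2c, which were lower with Zscan4f than in control, and Kdm6a, Ezh1 and Sirt7, which were higher. Their changes were small, between 0.23 and 0.54 in size on the log2(TPM + 1) scale. The other 61 of the 68 enzymes were called in no comparison. Of all genes, 18.5% were called with Zscan4f against control alone. The median size of the log2 fold change was 0.10 for the enzymes and 0.15 for all genes both with Zscan4f3A against Zscan4f and with Zscan4f against control, and 0.05 for the enzymes and 0.09 for all genes with Zscan4f3A against control. The signed medians of the enzymes were -0.00, -0.01 and -0.02 in Zscan4f3A against Zscan4f, Zscan4f3A against control and Zscan4f against control. For 63, 65 and 62 of the 68 enzymes in these comparisons the 95% interval of the change lay inside 1.5-fold either way, which held for 68.5%, 77.9% and 67.6% of all genes. For 68 of 68 it lay inside 2-fold in each comparison. The 3 libraries of one group lay wholly above or below those of the other for 14 enzymes with Zscan4f3A against Zscan4f (34.8% of all genes), for 7 with Zscan4f3A against control (15.4%) and for 22 with Zscan4f against control (38.2%).

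**Figure D2:**
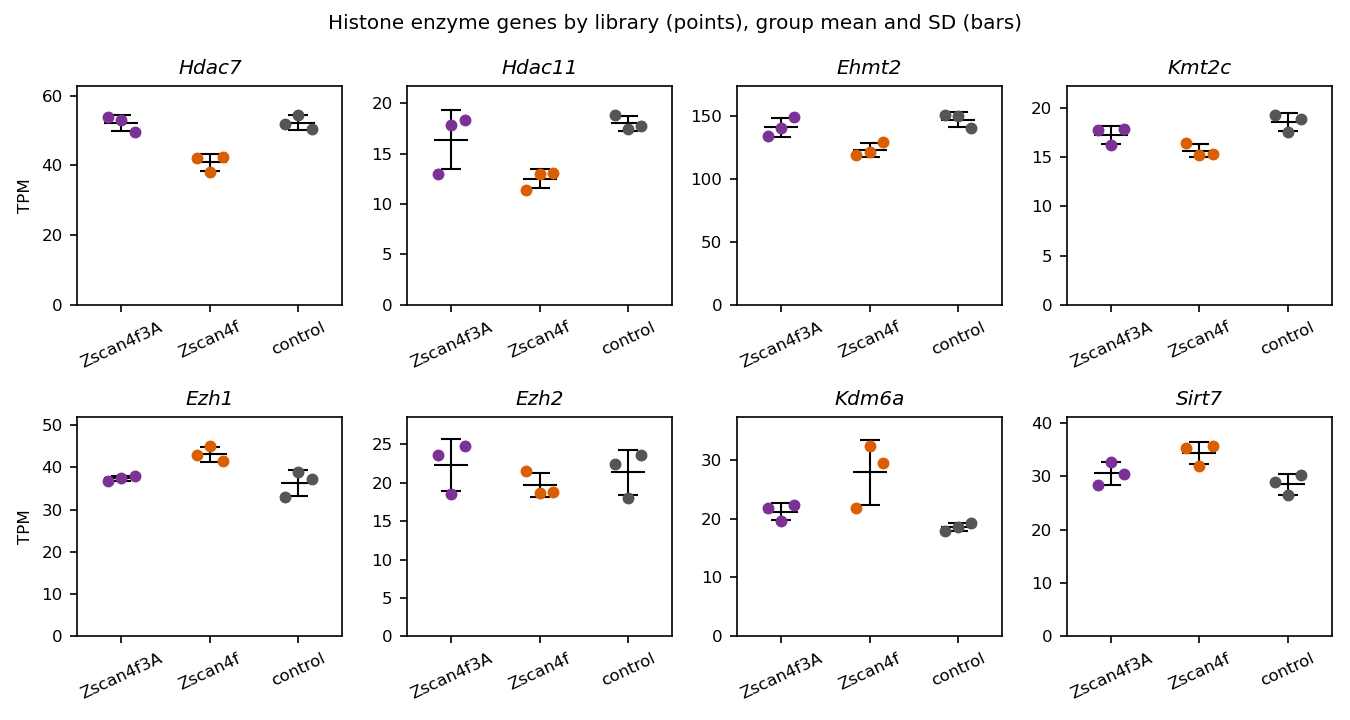
TPM in each library of the 7 histone enzyme genes called in any comparison and of Ezh2, the paralog of Ezh1, with the 3 libraries of the Zscan4f3A, Zscan4f and control groups as points and bars at the mean and 1 SD either side. The Zscan4f libraries stand apart from control for all 7 called genes, while the Zscan4f3A libraries overlap the control libraries except for Kdm6a, where they run from 19.5 to 22.4 TPM against 17.9 to 19.3 TPM in control.

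The promoter windows of the 4 genes with the steadiest or the largest changes are shown because transcription factors that set the level of a gene bind there. Each is the 250 bases before a start site in RefSeq, on GRCm38.p6 and read in the direction of transcription. Capitals mark GGGCGG, the binding sequence of Sp1-type factors, CACACA, a CA repeat, and CACGTG, the E-box bound by Myc, each sought on both strands, so that a CA repeat on the other strand appears as TGTGTG. Hdac7 is the first of 4 windows for that gene (chr15:97831496-97831745, minus strand), Ehmt2 the first of 2 (chr17:34898224-34898473, plus strand), and Hdac11 (chr6:91156565-91156814, plus strand) and Kdm6a (chrX:18162325-18162574, plus strand) have 1 each.
Hdac7: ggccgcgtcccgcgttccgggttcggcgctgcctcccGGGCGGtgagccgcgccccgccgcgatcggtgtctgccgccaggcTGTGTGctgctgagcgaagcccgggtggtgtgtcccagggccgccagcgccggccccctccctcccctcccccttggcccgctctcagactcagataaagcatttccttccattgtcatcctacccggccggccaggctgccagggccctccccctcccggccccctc
Ehmt2: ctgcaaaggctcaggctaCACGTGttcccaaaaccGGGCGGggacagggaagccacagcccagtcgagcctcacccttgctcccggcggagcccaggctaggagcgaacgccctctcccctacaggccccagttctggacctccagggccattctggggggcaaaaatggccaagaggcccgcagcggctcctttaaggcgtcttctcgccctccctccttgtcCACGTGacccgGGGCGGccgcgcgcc
Hdac11: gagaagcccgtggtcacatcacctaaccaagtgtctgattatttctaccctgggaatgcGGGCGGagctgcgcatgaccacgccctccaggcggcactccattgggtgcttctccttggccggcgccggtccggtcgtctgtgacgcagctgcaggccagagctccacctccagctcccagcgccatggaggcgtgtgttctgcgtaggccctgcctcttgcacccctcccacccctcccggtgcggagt
Kdm6a: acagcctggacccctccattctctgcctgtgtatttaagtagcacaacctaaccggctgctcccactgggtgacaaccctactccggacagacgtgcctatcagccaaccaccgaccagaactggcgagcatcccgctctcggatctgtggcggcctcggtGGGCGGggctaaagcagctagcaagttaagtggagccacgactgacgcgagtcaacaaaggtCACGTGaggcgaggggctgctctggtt
In the windows shown, GGGCGG is in all 4, CACGTG in those of Ehmt2 and Kdm6a, and TGTGTG in that of Hdac7. Windows 2, 3 and 4 of Hdac7, not shown, lack GGGCGG, as does the window of Ezh1. Window 2 of Hdac7 (chr15:97844503-97844752), next to the annotated start of the gene, holds none of these sequences. Of the 11 windows of the 7 called genes, 63.6% held GGGCGG, 27.3% CACACA and 27.3% CACGTG, where 27.3% is only 3 windows. Those with CACGTG belong to Ehmt2 and Kdm6a. Of the 68 enzymes, 55 had a RefSeq window, with 76 windows in all. GGGCGG was in 61.8% of these windows, against 32.7% of the 32851 windows of 27025 RefSeq genes, CACACA in 18.4% against 17.9%, and CACGTG in 7.89% against 6.02%. Those 27025 genes, unlike the enzymes, were not filtered on expression. The median number of CpG pairs was 18.5 per window for the enzymes and 6 for the 27025 unfiltered genes. A match describes the letters of the window only.

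Among the H3K9 methyltransferases, Ehmt2 (ENSMUSG00000013787.15, chr17:34898469-34914052) changed and its partner Ehmt1 did not pass the test. Ehmt2 had 134, 139.9 and 149 TPM with Zscan4f3A, 119, 121 and 129 TPM with Zscan4f, and 151, 149 and 140.3 TPM in control. The Zscan4f libraries were the lowest, with no overlap with either other group, and the other two groups overlapped. Against control Ehmt2 fell by 0.26 ± 0.05 (SE) on the log2 scale with Zscan4f, or 16.2%, with an adjusted p = 0.011 in limma. With Zscan4f3A it was 0.19 ± 0.05 above Zscan4f (adjusted p = 0.041 in limma). The fall against control kept its call in all 18 alternatives. The difference between Zscan4f3A and Zscan4f lost its call without Zscan4f3A replicate 2 or 3, Zscan4f replicate 1 or 2, or control replicate 1 or 2, with adjusted p of 0.056 to 0.12 in limma and log2 differences of 0.15 to 0.20, and in the other settings given with the limits.

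The other 5 H3K9 methyltransferases were called in no comparison. Setdb1, which works with the corepressor Trim28 at retroviral elements, had 31.2, 28.5 and 28.5 TPM with Zscan4f3A, 33.5, 32.4 and 34.7 TPM with Zscan4f and 28.6, 31.2 and 29.1 TPM in control. Its Zscan4f libraries were the highest with no overlap, but the log2 difference of Zscan4f3A from Zscan4f was -0.18 (95% interval -0.32 to -0.05, adjusted p = 0.068 in limma) and that of Zscan4f from control 0.17 (adjusted p = 0.074). Ehmt1 averaged 33.7 ± 0.95 TPM with Zscan4f3A, 35.6 ± 1.09 TPM with Zscan4f and 36 ± 0.61 TPM in control (SD, n = 3), and its Zscan4f3A libraries lay below the control libraries without overlap (log2 difference -0.09, adjusted p = 0.60 in limma). Suv39h1 averaged 14.3, 15.1 and 15.4 TPM in the Zscan4f3A, Zscan4f and control groups. Suv39h2 and Setdb2 were low, with 2.09 and 7.71 TPM with Zscan4f3A, 2.21 and 7.79 TPM with Zscan4f and 1.56 and 6.92 TPM in control, and their intervals were wide.

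On H3K27, the mark of Polycomb silencing, both a writer and an eraser rose with Zscan4f. Ezh1 (ENSMUSG00000006920.14, chr11:101191115-101226463) had 36.7, 37.6 and 38.0 TPM with Zscan4f3A, 42.9, 45.1 and 41.5 TPM with Zscan4f and 33.0, 38.9 and 37.2 TPM in control. The Zscan4f libraries were the highest, with no overlap with either other group. Ezh1 rose by 0.24 ± 0.06 (SE) on the log2 scale with Zscan4f against control, or 18.2% (adjusted p = 0.033 in limma), and the difference of Zscan4f3A from Zscan4f, -0.20, did not pass (adjusted p = 0.076). The rise lost its call without any 1 of the Zscan4f libraries or without control replicate 1 or 3, with log2 changes of 0.18 to 0.27 and adjusted p of 0.054 to 0.11. Its paralog Ezh2, the subunit of dividing cells, averaged 22.3 ± 3.36 TPM with Zscan4f3A, 19.7 ± 1.60 TPM with Zscan4f and 21.4 ± 2.96 TPM in control (SD, n = 3). The log2 difference of Ezh2 between Zscan4f and control was -0.11 with a 95% interval of -0.41 to 0.20.

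Kdm6a (ENSMUSG00000037369.17, chrX:18162575-18279936), also called Utx, takes methyl groups off H3K27 and is a subunit of the complexes built on Kmt2c and Kmt2d. It had 21.8, 19.5 and 22.4 TPM with Zscan4f3A, 21.8, 32.4 and 29.4 TPM with Zscan4f and 17.9, 18.6 and 19.3 TPM in control. All Zscan4f libraries were above all control libraries, but Zscan4f replicate 1 lay within the range of the Zscan4f3A libraries, well below the other two of its group. Kdm6a showed the largest change of the 68 enzymes with Zscan4f against control, 0.54 ± 0.13 (SE) on the log2 scale or 45.4% (adjusted p = 0.020 in limma). The call was lost without Zscan4f replicate 2 or 3 or control replicate 1 or 2, where the log2 change was 0.43 to 0.54 and the adjusted p 0.059 to 0.073. Zscan4f3A differed from Zscan4f by -0.36 (95% interval -0.66 to -0.07, adjusted p = 0.099) and from control by 0.18 (interval -0.12 to 0.47, adjusted p = 0.69). Its paralog Kdm6b averaged 40.7 ± 1.79, 40.1 ± 1.59 and 40.9 ± 1.56 TPM in the Zscan4f3A, Zscan4f and control groups (SD, n = 3). The 95% interval of Kdm6b with Zscan4f against control ran only from -0.15 to 0.09. Kdm6bos overlaps Kdm6b on the opposite strand, and since nothing states that counting used strand, reads of the pair cannot be told apart.

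The H3K4 methyltransferases Kmt2a to Kmt2d, Setd1a and Setd1b act in large complexes. Those of Kmt2a and Kmt2b act at promoters of developmental genes, those of Kmt2c and Kmt2d at enhancers, and those of Setd1a and Setd1b at most active promoters. The class as counted here has 8 genes, with Setd7 and Kmt2e among them. Of these, 1 was called with Zscan4f against control, where 18.5% of all genes were called, and 0 in the other comparisons. Kmt2c (ENSMUSG00000038056.15, chr5:25271798-25498783) had 17.7, 16.2 and 17.9 TPM with Zscan4f3A, 16.4, 15.2 and 15.3 TPM with Zscan4f and 19.3, 17.5 and 18.9 TPM in control. The Zscan4f libraries were below the control libraries, and the Zscan4f3A libraries overlapped both. Kmt2c fell by 0.23 ± 0.07 (SE) on the log2 scale, or 14.9%, with Zscan4f against control (adjusted p = 0.040 in limma). Without any 1 Zscan4f library, control replicate 1 or 3 or Zscan4f3A replicate 1 the call was lost, with log2 changes of -0.27 to -0.21 and adjusted p of 0.051 to 0.12. Its paralog Kmt2d had 19.8, 20.4 and 23.2 TPM with Zscan4f3A, 18.5, 17.5 and 19.0 TPM with Zscan4f and 23.0, 19.6 and 21.0 TPM in control. Its Zscan4f libraries were the lowest as well, without overlap, but its log2 change of -0.20 against control did not pass (adjusted p = 0.13).

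Kmt2a averaged 23.1, 21.9 and 24.96 TPM, and Kmt2e, a relative without known methyltransferase activity, averaged 60.7, 55.8 and 63.6 TPM in the Zscan4f3A, Zscan4f and control groups. Against control the log2 change with Zscan4f was -0.18 for Kmt2a and -0.19 for Kmt2e (adjusted p = 0.17 in limma for each). Setd1a and Setd7 lay on the other side, with log2 changes of 0.15 (adjusted p = 0.23) and 0.11 (adjusted p = 0.10). Setd7 had 44.0, 43.8 and 45.8 TPM with Zscan4f3A, 49.9, 47.3 and 48.2 TPM with Zscan4f and 44.4, 44.4 and 45.5 TPM in control, so that its Zscan4f libraries were the highest without overlap. Setd1b, the lowest of the class at 17.1 TPM over 9 libraries, and Kmt2b differed by no more than 0.02 on the log2 scale between Zscan4f and control. The level of all 8 genes together was 254 ± 7.84 TPM with Zscan4f3A, 252 ± 13.2 TPM with Zscan4f and 261 ± 4.19 TPM in control (SD, n = 3).

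The erasers of H3K4 methylation, Kdm5a to Kdm5d and the flavin-dependent Kdm1a (LSD1) and Kdm1b, were called in no comparison. Kdm5c, the highest of the Kdm5 genes, averaged 51.8 ± 2.72 TPM with Zscan4f3A, 51.3 ± 2.03 TPM with Zscan4f and 53.8 ± 0.21 TPM in control (SD, n = 3). Kdm5b averaged 33.5 TPM with Zscan4f3A, 34.7 TPM with Zscan4f and 35.1 TPM in control, and its 95% intervals were among the narrowest, -0.14 to 0.04 with Zscan4f3A against Zscan4f and -0.11 to 0.08 with Zscan4f against control. Kdm1a had 67.7, 65.0 and 99.1 TPM with Zscan4f3A, 73.8, 70.6 and 66.5 TPM with Zscan4f and 71.2, 74.8 and 73.3 TPM in control. Zscan4f3A replicate 3, the library with the least sequence, stood above the other 8 for Kdm1a. It was also the highest of 9 for Setd8, with 88.8, 93.7 and 127 TPM with Zscan4f3A, 110.5, 94.7 and 102 TPM with Zscan4f and 88.4, 116 and 102 TPM in control, and for Kdm2a, described next.

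The remaining Jumonji demethylases act on H3K36 (Kdm2a and Kdm2b), H3K9 (Kdm3a, Kdm3b) or both (Kdm4a, Kdm4b, Kdm4c). Of the 9 genes in the class, 0 were called in any comparison. The shares of all genes called were 18.5% with Zscan4f against control, 15.1% with Zscan4f3A against Zscan4f and 0.0316% with Zscan4f3A against control. With 9 genes, 0 calls says little. Kdm2a had 31.3, 47.6 and 58.7 TPM with Zscan4f3A, 41.4, 44.3 and 52.5 TPM with Zscan4f and 51.7, 55.2 and 50.3 TPM in control. The Zscan4f3A libraries thus spanned all the others. Kdm4b had 42.4, 34.8 and 40.5 TPM with Zscan4f3A, 33.0, 29.7 and 35.4 TPM with Zscan4f and 38.2, 40.2 and 36.1 TPM in control, where the Zscan4f libraries lay below control without overlap. Its log2 difference was 0.25 with Zscan4f3A against Zscan4f (95% interval 0.05 to 0.46, adjusted p = 0.095 in limma) and -0.22 with Zscan4f against control (adjusted p = 0.13). The Zscan4f libraries of Kdm3a and Kdm4a also lay below control without overlap. Those of Kdm7a, at 13.0 to 13.3 TPM, instead lay above Zscan4f3A, at 10.3 to 12.1 TPM, and control, at 10.8 to 12.6 TPM. Against control the log2 change of Kdm7a with Zscan4f was 0.14 (adjusted p = 0.30 in limma). Kdm4a, the highest of the class, averaged 58.9, 57.5 and 61.7 TPM, and Kdm8, the lowest, 3.18, 3.67 and 3.20 TPM in the Zscan4f3A, Zscan4f and control groups. Setd2 and Dot1l, which write H3K36 trimethylation and H3K79 methylation in transcribed genes, averaged 44.9 and 29.9 TPM with Zscan4f3A, 48.5 and 28.1 TPM with Zscan4f and 48.7 and 28.8 TPM in control, and were called in no comparison.

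The deacetylases showed the steadiest change of the whole group, in Hdac7 (ENSMUSG00000022475.19, chr15:97792664-97844502). It is a class IIa enzyme, a class that moves between cytoplasm and nucleus and represses Mef2 factors with little activity of its own. Hdac7 had 54.0, 52.9 and 49.7 TPM with Zscan4f3A, 42.0, 38.2 and 42.5 TPM with Zscan4f and 51.8, 54.6 and 50.4 TPM in control. All Zscan4f libraries were lower than all 6 others, and the Zscan4f3A and control libraries were interleaved. Hdac7 fell by 0.35 ± 0.06 (SE) on the log2 scale with Zscan4f against control, or 21.4% (adjusted p = 0.0038 in limma). Zscan4f3A was 0.35 ± 0.06 above Zscan4f (27.2%, adjusted p = 0.0049) and did not differ detectably from control (-0.00, 95% interval -0.13 to 0.13). Both calls held in all 18 alternatives, with adjusted p of 0.0025 to 0.017 against control and 0.0024 to 0.021 between the overexpressed forms. Hdac7 overlaps Slc48a1, at 128 TPM, on the opposite strand over 29 bases.

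The other class IIa genes were called in no comparison. Hdac5, the highest, had 81.9, 83.7 and 93.2 TPM with Zscan4f3A, 79.5, 77.9 and 77.8 TPM with Zscan4f and 85.4, 85.9 and 88.1 TPM in control. Its Zscan4f libraries too were the lowest without overlap (log2 change against control -0.14, adjusted p = 0.097 in limma). Hdac4 averaged 32.5, 33.8 and 34.2 TPM in the Zscan4f3A, Zscan4f and control groups. Hdac9, close to the filter, went the other way, with 0.649 to 0.949 TPM with Zscan4f3A and 1.07 to 1.51 TPM with Zscan4f. Its control libraries, at 0.868 to 1.37 TPM, overlapped both. The 4 class IIa genes together reached 172 ± 6.44 TPM with Zscan4f3A, 154 ± 5.28 TPM with Zscan4f and 174 ± 2.02 TPM in control (SD, n = 3), and no Zscan4f library reached the others. This sum includes the called Hdac7 and the high Hdac5, so it does not describe each gene of the class.

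Hdac11 (ENSMUSG00000034245.10, chr6:91156665-91174692), the only class IV deacetylase and known to remove fatty acyl groups, had 13.0, 17.9 and 18.3 TPM with Zscan4f3A, 11.4, 13.0 and 13.1 TPM with Zscan4f and 18.9, 17.4 and 17.7 TPM in control. The Zscan4f libraries lay below control without overlap, while Zscan4f3A replicate 1 lay with the Zscan4f libraries and its other two with control. Hdac11 fell by 0.49 ± 0.12 (SE) on the log2 scale with Zscan4f against control, or 29.0% (adjusted p = 0.024 in limma). The call was lost without any 1 of the 6 Zscan4f and control libraries (log2 changes -0.53 to -0.43, adjusted p 0.052 to 0.080). Zscan4f3A differed from Zscan4f by 0.35 (95% interval 0.07 to 0.63, adjusted p = 0.092).

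The class I enzymes, which include the catalytic subunits of the Sin3, NuRD, CoREST and NCoR complexes, were called in no comparison. Hdac1 averaged 127 ± 8.90 TPM with Zscan4f3A, 130 ± 4.73 TPM with Zscan4f and 119 ± 4.49 TPM in control (SD, n = 3). Hdac2 averaged 96.5 ± 6.68, 98.0 ± 5.89 and 105 ± 3.79 TPM in the same groups. Its Zscan4f3A libraries lay below control, narrowly and without overlap (log2 difference -0.13, 95% interval -0.27 to 0.02, adjusted p = 0.60 in limma). Hdac3 was uneven within groups, with 64.8, 61.7 and 75.0 TPM with Zscan4f3A, 81.9, 84.4 and 61.2 TPM with Zscan4f and 87.6, 64.2 and 65.0 TPM in control. Hdac8, the lowest of the class, averaged 11.2 TPM with Zscan4f3A, 11.0 TPM with Zscan4f and 10.8 TPM in control. The class IIb genes Hdac6, mainly a tubulin deacetylase, and Hdac10 averaged 21.8 and 13.3 TPM with Zscan4f3A, 19.3 and 12.6 TPM with Zscan4f and 21.4 and 13.2 TPM in control.

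Of the 7 sirtuins, deacylases that consume NAD, 1 was called with Zscan4f against control, Sirt7, where 18.5% of all genes were called. In the other comparisons 0 were called. Sirt7 (ENSMUSG00000025138.14, chr11:120618372-120625240), a nucleolar enzyme that deacetylates H3K18, had 28.4, 32.8 and 30.4 TPM with Zscan4f3A, 35.3, 32.0 and 35.7 TPM with Zscan4f and 28.8, 26.4 and 30.3 TPM in control. The Zscan4f libraries were above control, and the Zscan4f3A libraries overlapped both. Sirt7 rose by 0.26 ± 0.08 (SE) on the log2 scale, or 19.7% (adjusted p = 0.045 in limma), and the difference of Zscan4f3A from Zscan4f, -0.16, did not pass (adjusted p = 0.19). The rise lost its call without Zscan4f replicate 1 or 3, any 1 control library or Zscan4f3A replicate 3 (log2 changes 0.21 to 0.30, adjusted p from 0.050, just over the threshold, to 0.14). It overlaps Mafg, at 70.0 TPM, on the same strand over 124 bases.

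Sirt4, a mitochondrial sirtuin, had 15.2, 19.1 and 17.1 TPM with Zscan4f3A, 12.8, 14.1 and 13.4 TPM with Zscan4f and 13.7, 13.0 and 15.7 TPM in control. Its Zscan4f3A libraries were the highest against Zscan4f without overlap and overlapped control. The log2 difference was 0.33 with Zscan4f3A against Zscan4f (95% interval 0.10 to 0.55, adjusted p = 0.057 in limma) and 0.26 with Zscan4f3A against control (interval 0.04 to 0.48, adjusted p = 0.52). Sirt6, a deacetylase of telomeric chromatin, had 32.4, 33.7 and 33.7 TPM with Zscan4f3A, 30.4, 31.9 and 31.5 TPM with Zscan4f and 28.7, 31.1 and 29.6 TPM in control. Its Zscan4f3A libraries were above those of both other groups. Its log2 difference from control, 0.15 (adjusted p = 0.46), had the smallest p of the 68 enzymes in that comparison. Sirt2, the highest sirtuin, spread widely, with 93.3, 104 and 85.1 TPM with Zscan4f3A, 102, 68.8 and 71.1 TPM with Zscan4f and 99.0, 81.5 and 112 TPM in control. Sirt1, the best known of the nuclear sirtuins and the lowest here, averaged 11.3, 11.4 and 11.2 TPM in the Zscan4f3A, Zscan4f and control groups.

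The acetyltransferases were called in no comparison. Ep300 and Crebbp, the coactivators that acetylate H3K27 at enhancers, averaged 39.8 and 16.1 TPM with Zscan4f3A, 43.8 and 15.4 TPM with Zscan4f and 40.4 and 17.4 TPM in control. Kat2a and Kat2b, which acetylate H3K9 in the SAGA and ATAC complexes, averaged 37.1 and 20.5 TPM with Zscan4f3A, 38.5 and 19.4 TPM with Zscan4f and 37.5 and 20.3 TPM in control. Among the MYST enzymes, Kat7, which acetylates H3K14, averaged 42.7 ± 2.55 TPM with Zscan4f3A, 43.9 ± 0.17 TPM with Zscan4f and 41.0 ± 0.05 TPM in control (SD, n = 3), and its Zscan4f libraries lay above control without overlap (adjusted p = 0.24 in limma). Kat6b, the lowest of these, had 29.0, 28.5 and 31.1 TPM with Zscan4f3A, 27.4, 23.9 and 23.7 TPM with Zscan4f and 26.6, 29.5 and 25.1 TPM in control. Its Zscan4f3A libraries lay above the Zscan4f libraries (log2 difference 0.23, 95% interval 0.05 to 0.41, adjusted p = 0.086). Kat5, Kat6a and Kat8 differed by at most 0.09 on the log2 scale in any comparison.

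Some genes taken in by name act mainly on other proteins. Setd3, which methylates actin, had 56.3, 54.9 and 53.5 TPM with Zscan4f3A, 57.1, 84.3 and 52.4 TPM with Zscan4f and 59.8, 60.9 and 58.4 TPM in control, with Zscan4f replicate 2 far above the rest. Setd6, known for methylating the NF-kappa-B subunit RelA, had 15.6, 14.1 and 17.4 TPM with Zscan4f3A, 17.5, 23.4 and 25.8 TPM with Zscan4f and 21.6, 19.4 and 13.1 TPM in control. Its log2 difference of Zscan4f3A from Zscan4f, -0.46, was the largest of the 68 in size in that comparison, without passing the test (adjusted p = 0.15 in limma). Setd5, at 73.7, 75.9 and 73.5 TPM, and Setd4, at 5.72, 5.28 and 5.14 TPM in the Zscan4f3A, Zscan4f and control groups, were likewise not called.

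**Figure D3:**
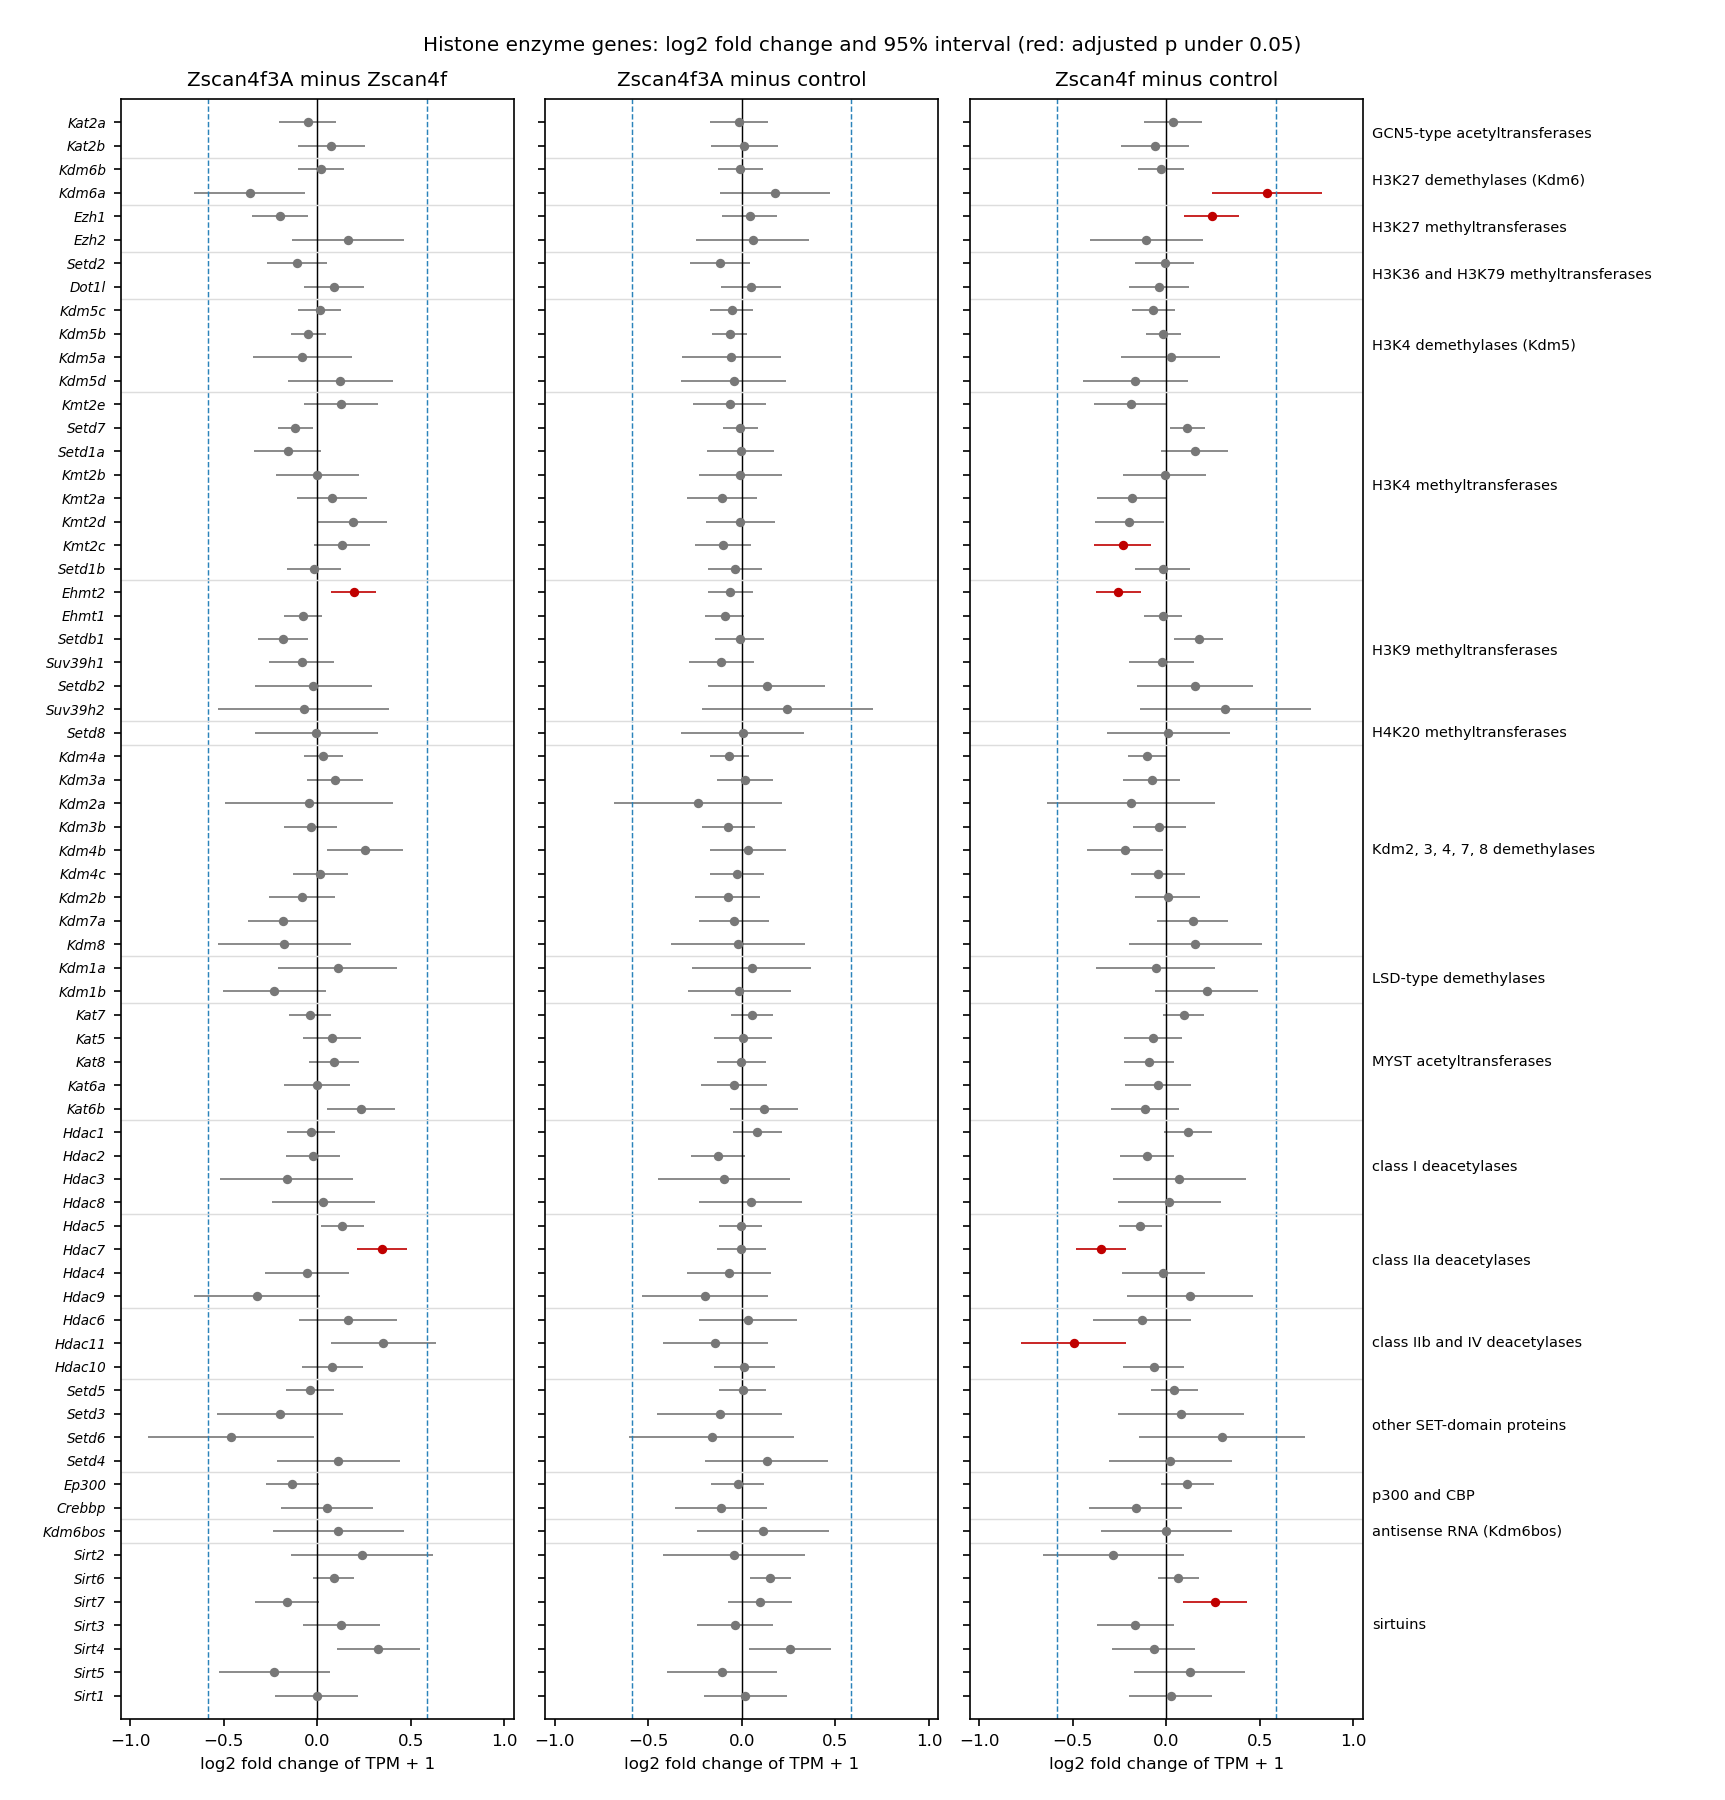
Log2 fold change of TPM + 1 for the 68 histone enzyme genes, in rows by role, with 95% intervals, for Zscan4f3A against Zscan4f, Zscan4f3A against control and Zscan4f against control; red marks an adjusted p under 0.05 and the dashed lines mark a 1.5-fold change. The 2 and 7 red points of the outer panels lie inside the dashed lines, and the middle panel, with 0 red points, has 65 of 68 intervals wholly inside them.

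Spread within groups was small for most of the enzymes. Over the 204 sets of 3 libraries (68 genes in 3 groups), the highest library exceeded the lowest by a median ratio of 1.13, and by more than 1.4 in 19 sets. The wide sets included Kdm2a and Setd8 with Zscan4f3A, Kdm6a and Setd3 with Zscan4f, and Hdac9 in all 3 groups.

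The partners of the enzymes, 165 tested genes in 10 lists that count Mat2a and Men1 under each of their 2 gene IDs, were also called at a share below that of all genes. With Zscan4f3A against Zscan4f 18 were called (10.9%, against 15.1% of all genes), 5 higher and 13 lower. With Zscan4f3A against control 0 were called by limma (0.0316% of all genes). An unadjusted p under 0.05 was found for 10 of the 165, and for 8.77% of all genes. With Zscan4f against control 21 were called (12.7%, against 18.5% of all genes), 13 higher and 8 lower. In the supply of cofactors, 4 of 16 genes were called with Zscan4f against control, all higher (8.74% of all genes were called higher), and the same 4 were called lower with Zscan4f3A against Zscan4f (7.48% of all genes). They were Idh2, which makes 2-oxoglutarate in mitochondria, Nmnat3, which makes NAD there, Ahcy, which clears the by-product of methylation, and Acss2, which makes acetyl-CoA from acetate. Idh2 averaged 177 ± 3.43 TPM with Zscan4f3A, 224 ± 8.88 TPM with Zscan4f and 175 ± 4.03 TPM in control, and Nmnat3 averaged 20.04 ± 1.97, 33.2 ± 1.60 and 20.02 ± 1.62 TPM in these groups (SD, n = 3). The log2 changes with Zscan4f against control were 0.36 for Idh2, 0.70 for Nmnat3, 0.24 for Ahcy and 0.29 for Acss2, with adjusted p of 0.00035, 0.00067, 0.0052 and 0.0099 in limma. The call of Acss2 with Zscan4f3A against Zscan4f (-0.22, adjusted p = 0.038) was lost without any 1 library other than Zscan4f3A replicate 1, with adjusted p up to 0.11.

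The counts per list from here on stand beside the shares of all genes called. These were 8.74% higher and 9.71% lower with Zscan4f against control, and 7.64% higher and 7.48% lower with Zscan4f3A against Zscan4f. Of the 10 tested partners in Polycomb repressive complex 2, 0 were higher and 2 lower with Zscan4f against control. These 2 were the accessory subunits Phf19 (log2 change -0.48) and Aebp2 (-0.36), and 0 were called in the other comparisons. Of the 18 genes of Polycomb repressive complex 1, Pcgf5 was higher with Zscan4f against control (0.48). The 13 tested partners of the H3K4 methyltransferases held Psip1, which tethers the Kmt2a complex to chromatin. It had a mean of 97.5 ± 2.11 TPM with Zscan4f3A, 77.1 ± 3.61 TPM with Zscan4f and 101 ± 6.72 TPM in control (SD, n = 3), was lower with Zscan4f than in control (-0.38, adjusted p = 0.0018 in limma) and higher with Zscan4f3A than with Zscan4f (0.34, adjusted p = 0.0046). The shared core subunit Wdr5 was lower with Zscan4f3A than with Zscan4f (-0.21).

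Among the 25 partners in deacetylase corepressor complexes, Chd4 (log2 change 0.15), Sap30 (0.44) and Rcor2 (0.28) were higher and Mta1 (-0.13) lower with Zscan4f against control, and Sap30 (-0.55) and Rcor2 (-0.36) were lower and Phf21a (0.45) higher with Zscan4f3A against Zscan4f. Among the 30 partners of the acetyltransferases, Jade2 (0.49) and Mcrs1 (0.24) were higher with Zscan4f against control, and with Zscan4f3A against Zscan4f Ing3 (0.65) was higher and Jade2 (-0.48) and Jade1 (-0.29) were lower. The 20 other lysine methyltransferases and demethylases held 3 genes lower with Zscan4f against control, Prdm16 (-0.78), Mecom (-0.40) and the H3K36 methyltransferase Ash1l (-0.17), and Mecom was higher with Zscan4f3A against Zscan4f (0.34). Of the 9 tested arginine methyltransferases, Prmt9 was lower with Zscan4f against control (-0.41) and Prmt5 lower with Zscan4f3A against Zscan4f (-0.19). Of the 12 HP1 and bromodomain readers, Baz2a was higher with Zscan4f against control (0.34) and, with Cbx5 (-0.15), lower with Zscan4f3A against Zscan4f (-0.33). Of the 12 histone chaperones, Nasp (0.25) and Asf1b (0.34) were higher with Zscan4f against control, and Npm1 was lower with Zscan4f3A against Zscan4f (-0.16). Of the partners named outside the supply of cofactors, Psip1, Chd4, Sap30, Jade2, Prdm16 and Baz2a kept their call with Zscan4f against control without any 1 library, as Psip1, Sap30, Rcor2, Jade2 and Baz2a did with Zscan4f3A against Zscan4f, and each of the others lost it without at least 1, with adjusted p of up to 0.15 and 0.14 in these comparisons.

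Marker genes were also called in the Zscan4f libraries, and their part in the results above was not tested. Beside the counts that follow, 8.74% of all genes were called higher and 9.71% lower with Zscan4f against control, and 7.48% lower with Zscan4f3A against Zscan4f. The summed level of 8 epithelial markers was 84.1 to 90.5 TPM with Zscan4f3A, 203 to 210.2 TPM with Zscan4f and 75.4 to 77.0 TPM in control, with 6 of 8 higher and 1 lower with Zscan4f against control. The summed level of 20 cell division genes was 394 to 411 TPM with Zscan4f3A, 471 to 484 TPM with Zscan4f and 399 to 412 TPM in control, with 6 higher and 0 lower with Zscan4f against control and 8 lower with Zscan4f3A against Zscan4f. Among the 10 fibroblast markers 3 were higher and 4 lower with Zscan4f against control. Few markers of other cell types passed the filter: of 6 for macrophages 2 did, with a summed level over all 6 of 12.8 to 15.1 TPM with Zscan4f3A, 19.95 to 22.6 TPM with Zscan4f and 12.4 to 14.8 TPM in control and 1 called higher with Zscan4f against control, and of 4 for endothelium 1 did, which was called higher (summed level 31.7 to 33.3 TPM with Zscan4f3A, 45.7 to 46.9 TPM with Zscan4f and 30.0 to 32.7 TPM in control). Of 4 neural markers 2 were higher and 1 lower with Zscan4f against control (summed level 399 to 403 TPM with Zscan4f3A, 369 to 379 TPM with Zscan4f and 383 to 399.6 TPM in control). Of 4 skeletal muscle markers 2 were tested and 1 was higher (summed level 21.9 to 24.9 TPM with Zscan4f3A, 26.8 to 29.9 TPM with Zscan4f and 18.8 to 22.1 TPM in control), and the defining gene Myod1 was at 0 in every library. Of 5 pluripotency markers 0 passed the filter, their summed level was 0.288 to 0.525 TPM with Zscan4f3A, 0.993 to 2.07 TPM with Zscan4f and 0.432 to 0.491 TPM in control, and Dppa5a was at 0 in every library. In Zscan4f3A against control 0 genes of any of these lists were called by limma, where only 0.0316% of all genes were called, so this says little about the markers.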

How the data were processed

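Total RNA was sequenced from 9 libraries, 3 per group, grouped by the labels. Per the submitters' processing notes, reads were aligned with HISAT2 2.1.0 and abundance was estimated with StringTie, whose version, like the genome build and annotation, is not given in the sources. The deposited TPM values are scaled by the authors to a common sum per library and the deposited FPKM values by its fragments. The deposited coverage values are mean read depth, and coverage over FPKM gave the aligned sequence per library. Of the gene IDs found in GRCm38 (GENCODE M21), 97.7% had the same coordinates, as did 70 of the 72 IDs described, so GRCm38 coordinates are given. Entries of the 15 IDs listed more than once were summed. No pair of libraries was identical (0).

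The filter of 1 TPM in at least 3 of 9 libraries kept 15837 genes. Log2(TPM + 1) was fitted with limma 3.58.1 in R 4.3.3 (group means, prior variance with a trend), two-sided, with Benjamini-Hochberg adjustment over all genes. Fold changes are of TPM + 1, which understates changes of low genes, and TPM means and SDs are on the plain scale. Promoters came from RefSeq (GRCm38.p6). Figures were drawn with matplotlib 3.10.9 in Python 3.11.15 (numpy 2.4.6, pandas 2.3.3). The code was tested on simulated data. The genes, the 10 lists of partners, the list of cell division genes and the 7 lists of cell type markers were chosen with earlier results of these data known. Named were all called enzymes, the 4 enzymes with the smallest p where fewer were called, the highest and lowest of each role, up to 4 called genes per list of partners, and the genes beside the filter; genes outside this rule were named after their values were seen.

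The 18 alternatives were 9 other settings, namely no filter, a filter at 5 TPM, FPKM, a pseudocount of 0.1, quantile normalization, median-of-ratios scaling, only the 2 groups compared, no trend and the replicate number as a block, and leaving out each of the 9 libraries. Those for the partners were chosen after seeing the data. One partner gene is not reported here by name.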

Additional observations from a re-analysis of the deposited data

How the results depend on the processing

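No log2 fold change of a called enzyme or a named called partner reversed in any alternative, in the comparison where it was called. The same held for the enzymes named for the smallest p where fewer were called, in that comparison. For the other named genes, such as the highest and lowest of each role, reversal was not tested. The signed medians of the enzymes, which are near 0, did change sign: with Zscan4f3A against Zscan4f up to 0.02 (without Zscan4f3A replicate 1), and with Zscan4f3A against control to 0.01 with FPKM. Of 7 enzymes called with Zscan4f against control, 2 stayed called without the filter on low values, where more genes share the adjustment (Hdac7 and Ehmt2), while Ezh1 and Kmt2c also lost their call with only the 2 groups compared, and Sirt7 with no trend and with the replicate block. With Zscan4f3A against Zscan4f, 1 in place of 2 was called with no filter, with only the 2 groups compared, with no trend and with the replicate block, each time Hdac7. Same-numbered libraries did not deviate together (correlations -0.079 to 0.053), so the block shares only a number. Over all genes, Zscan4f3A against control gave 5 calls, 3 with no filter and 1 with the replicate block. The count of partners called with Zscan4f3A against Zscan4f, 18, was 11 with no filter, 9 with only the 2 groups compared, 11 with no trend and 10 with the replicate block, newly called genes included, and the count with Zscan4f against control, 21, was 13 with no filter. The cause was not tested.

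Leaving out 1 library gave 2 to 7 enzymes called with Zscan4f against control: 3, 3 and 2 without Zscan4f replicate 1, 2 and 3, and 2, 4 and 3 without control replicate 1, 2 and 3. With Zscan4f3A against Zscan4f it gave 1 to 5, with 5 without Zscan4f3A replicate 1 and 1 without Zscan4f3A replicate 3, Zscan4f replicate 2 or control replicate 2. With Zscan4f3A against control it gave 0 to 0. Partners ranged over 12 to 25, 8 to 15 and 0 to 0 in the same order, and all genes over 2126 to 3285, 1574 to 2168 and 1 to 16. With 3 libraries per group and no counts, precision rests on the spread between libraries alone.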
